A study of Homo sapiens with 42 samples.

Results

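The DNA replication genes described here are 38 genes whose products license replication origins, unwind DNA, copy it, join the new strands, supply nucleotides or control these steps. They were taken by symbol from the count table of 58869 genes, with no use of their measured values, and all 38 passed the filter on low counts in both cell lines. RNA was measured in 2 human acute myeloid leukemia (AML) cell lines, OCI-AML3, which carries mutant NPM1 (NPM1c), and NOMO1, which carries a rearranged KMT2A gene. Each line had 7 groups of 3 libraries, 42 libraries in all. Cells received the solvent DMSO, VTP-50469, which inhibits menin, or VTP-50469 together with selumetinib, which inhibits MEK, each sampled on day 3 and on day 6, and the seventh group received selumetinib alone. Either drug was given at 100 nM.

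Several limits come from the labels. The selumetinib libraries are described as 1 day of treatment, while titles of 2 of the 3 libraries in each line give day 3, and no DMSO library of day 1 is labelled. Time and treatment therefore cannot be told apart in the selumetinib comparisons. How long selumetinib was present in the combination is not given in the labels. Whether libraries of 1 group come from separately grown cells is not stated in the labels, so the p-values measure only the spread between these libraries, which may be technical. In OCI-AML3 each treatment was compared with DMSO of the same day and selumetinib with DMSO day 3. In NOMO1 DMSO day 6 was the control throughout, because its DMSO day 3 libraries stood apart, as described before the NOMO1 results.

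DNA replication is prepared in the G1 phase of the cell cycle, when the origin recognition complex (ORC), CDC6 and CDT1 load the ring of MCM2 to MCM7 onto DNA. In S phase this ring becomes an active helicase when CDC45 and the GINS complex join it, primase and the polymerases start and extend the new strands, PCNA holds the polymerases on DNA, and FEN1 and LIG1 trim and join the pieces of the lagging strand. Many of these genes are known targets of E2F transcription factors, which act when cyclin-dependent kinases have inactivated the retinoblastoma protein. Menin holds KMT2A complexes at their target genes, and MEK passes growth signals from RAS and RAF to ERK. In leukemia cells both routes are known to bear on whether cells divide.

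Library totals were 15561248 to 24262960 counts for OCI-AML3, while NOMO1 libraries held 15264862 to 29168628. Levels are CPM, the counts divided by the TMM-scaled library total and put on a fixed common total, within a line, so a CPM is compared only within its line. Markers of myeloid cells were present at 1 CPM or more for 9 of 12 genes in OCI-AML3 and for 11 of 12 in NOMO1. On unscaled library totals, as for all marker values here, they summed to 1234.02 to 2848.49 CPM in OCI-AML3 and 4586.4 to 20189.6 CPM in NOMO1. Erythroid markers summed to at most 0.27 CPM in OCI-AML3 and 24.36 CPM in NOMO1, and B cell markers to at most 1.83 and 10.19 CPM. Summed T and NK cell markers ran from 120.44 to 220.09 CPM in NOMO1, mostly from NKG7 (108.02 to 179.3 CPM). Epithelial and stromal markers summed to 182.03 to 628.72 CPM in NOMO1 and to 11.52 to 146.66 CPM in OCI-AML3. PECAM1 was the highest of these, with group means of 159.97 to 497.24 CPM in NOMO1 and 11.57 to 131.49 CPM in OCI-AML3. Bulk RNA cannot tell fewer cycling cells from less of these RNAs in each cell. The reads carry no strand, and 17 of the 38 genes share exon bases with another gene, most of all TYMS (46.6% of its exon bases) and POLA2 (35.1%), so the counts of these genes are less certain.

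Per kilobase of exon, PCNA and MCM7 had the highest untreated levels in both lines, and the order below them differed. In OCI-AML3 at DMSO day 6, PCNA, the sliding clamp, stood highest at 146.7 CPM per kb, ahead of MCM7 (133.1), a subunit of the helicase ring, and CDT1 (122.1), its loading factor. In NOMO1 the order began with PCNA at 140.4 CPM per kb, MCM7 at 139.1 and RFC2, a subunit of the clamp loader, at 118.3. RFC2 held rank 14 in OCI-AML3, at 32.66 CPM per kb. The lowest level in both lines was that of POLA2, the second subunit of the polymerase alpha and primase complex, at 2.039 CPM per kb in OCI-AML3 and 1.379 in NOMO1. POLE2, a small subunit of polymerase epsilon, was also low at 3.746 and 3.074 CPM per kb, so its folds carry wide errors.

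The promoters of these genes hold E2F words more often than promoters in general. RefSeq promoter windows of GRCh38.p14, from 250 bases before to 50 bases after the start, were matched for 35 of the 38 genes. The words TTTGGCGC, TTTGCCGC, TTTCGCGC and TTTCCCGC were searched on both strands, and at least 1 was found in a window of 21 of the 35 genes (60.0%), against 3.992% of the 27305 genes with windows. By window, words were found in 22 of the 49 windows of these genes and in 3.315% of all 35116 windows. The word CCAAT was found in 60.0% of the 35 genes and in 39.722% of all genes, and CACGTG in 8.6% and 8.775%. TTTGAA, the last word searched, was less frequent in these genes, in 5.7% against 18.169%. A match is a description of letters and not of a bound site. Stretches of 5 promoters, printed 5′ to 3′ on the strand of the gene with the matched words in capitals, show how the words sit. They were chosen because these genes recur in the results: MCM3, MCM6 and PCNA had the interactions of smallest p in OCI-AML3, UHRF1 fell in every comparison with all or nearly all of the genes lower, and POLA1 was the gene that fell most when selumetinib was added at day 6 in NOMO1. In MCM6 the stretch TTTGGCGCGAAA occurs 2 times and holds overlapping words of both strands, 4 words in all.
MCM6, chr2:135876502-135876615 (GRCh38.p14, minus strand): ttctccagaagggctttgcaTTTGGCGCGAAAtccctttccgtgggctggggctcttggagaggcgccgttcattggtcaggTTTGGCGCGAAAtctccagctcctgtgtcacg
MCM3, chr6:52284889-52284936 (GRCh38.p14, minus strand): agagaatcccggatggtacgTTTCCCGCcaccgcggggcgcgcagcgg
PCNA, chr20:5126654-5126701 (GRCh38.p14, minus strand): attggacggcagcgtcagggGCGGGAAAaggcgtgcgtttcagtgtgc
UHRF1, chr19:4909964-4910011 (GRCh38.p14, plus strand): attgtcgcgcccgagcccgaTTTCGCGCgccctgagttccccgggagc
POLA1, chrX:24693761-24693808 (GRCh38.p14, plus strand): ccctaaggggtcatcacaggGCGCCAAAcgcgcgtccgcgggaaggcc
The 5 stretches lie before a RefSeq start of their genes, from 32 to 79 bases before it in PCNA, the nearest, and from 147 to 194 bases before it in MCM3, the farthest. UHRF1 has 3 RefSeq windows, and its stretch lies before the start of the second, inside the gene as GENCODE 29 places it.

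In OCI-AML3 nearly the whole set was lower with selumetinib. Relative to DMSO day 3, 36 of the 38 genes fell in edgeR's quasi-likelihood test at an adjusted p under 0.05 and none rose, while 15.6% of the 16384 genes tested fell and 11.7% rose. The median log2 fold change of the 38 genes was -0.87, with the median of all genes tested within 0.05 of 0 in this and every other comparison fitted in 1 line. The summed level of the 38 genes was 4676 ± 127 CPM (SD, n = 3) in DMSO day 3 and 2506 ± 425 CPM (SD, n = 3) with selumetinib, 46.4% lower. By library the sums with selumetinib were 2996, 2245 and 2276 CPM, so replicate 1 was the least lowered, and the number of genes that fell ran from 34 to 37 when any 1 of the 6 libraries compared was left out. The 2 genes that did not pass were PRIM2, a primase subunit (log2 fold change -0.06), and POLE2 (-0.57 ± 0.249, adjusted p = 0.14).

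**Figure D1:**
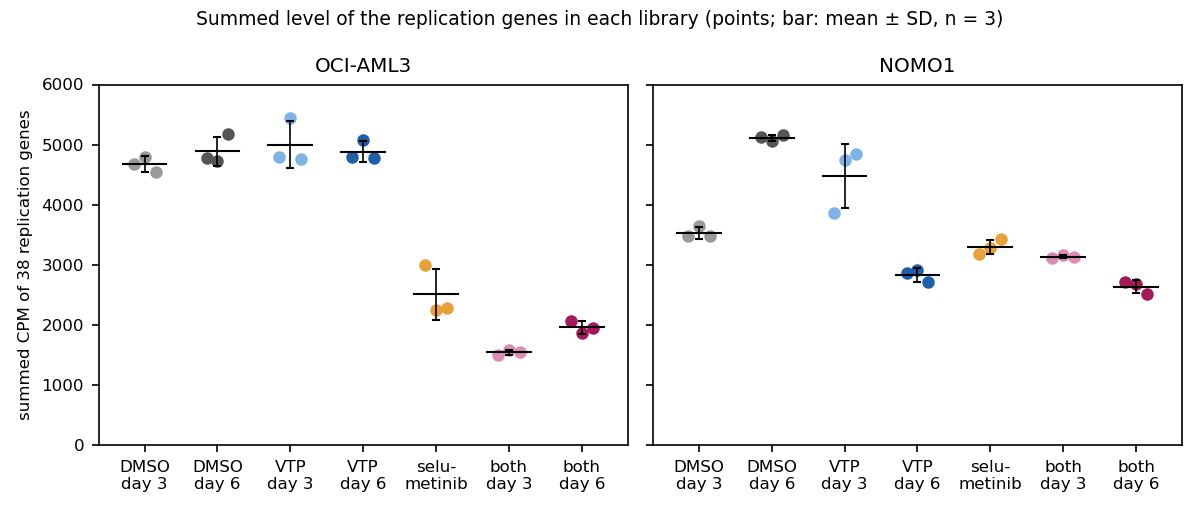
Summed CPM of the 38 DNA replication genes in each of the 42 libraries (points) and the group means (bars) for OCI-AML3 and NOMO1. In OCI-AML3 the selumetinib and combination libraries lie below all DMSO and VTP-50469 libraries, and in NOMO1 the DMSO day 3 libraries (3475 to 3647 CPM) lie below those of DMSO day 6 (5060 to 5152 CPM).

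Licensing and helicase activation genes were much lower with selumetinib in OCI-AML3. CDC6, an ATPase that loads the MCM ring (ENSG00000094804.11, chromosome 17, 40287633 to 40304657, GRCh38), stood at 55.7, 56.7 and 55.0 CPM in DMSO day 3 and at 23.9, 18.6 and 17.2 CPM with selumetinib. CDC45, which joins the ring to form the active helicase (ENSG00000093009.9, chromosome 22, 19479459 to 19520612), went from 59.9, 68.1 and 64.8 CPM to 27.0, 14.9 and 17.5 CPM. In both genes every selumetinib library was below every DMSO library, and selumetinib replicate 1 was the highest of its group. The log2 fold changes were -1.49 ± 0.153 for CDC6 (SE, adjusted p = 3.29e-08) and -1.70 ± 0.165 for CDC45 (adjusted p = 2.85e-08). The median over the 10 licensing genes was -0.95 and over the 6 helicase activation genes -1.04, and each of these 16 genes fell.

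MCM7, the licensing gene of highest CPM (ENSG00000166508.17, chromosome 7, 100092728 to 100101940), stood at 585, 595 and 553 CPM in DMSO day 3 and at 350, 240 and 266 CPM with selumetinib. MCM10, which helps to activate the helicase, went from 77.7, 83.8 and 76.5 CPM to 40.7, 23.0 and 27.6 CPM. Groups did not overlap in either gene, and replicate 1 was again the least lowered. The log2 fold changes were -1.02 ± 0.092 for MCM7 (adjusted p = 1.71e-09) and -1.38 ± 0.123 for MCM10 (adjusted p = 1.15e-09).

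Smaller falls were those of the clamp, the polymerases and the enzymes of the lagging strand. PCNA (ENSG00000132646.11, chromosome 20, 5114953 to 5126626) went from 203, 204 and 199 CPM in DMSO day 3 to 160, 139 and 138 CPM with selumetinib, a log2 fold change of -0.48 ± 0.069 (adjusted p = 3.71e-06). FEN1, the flap nuclease of the lagging strand (ENSG00000168496.4, chromosome 11, 61792637 to 61797244), went from 89.8, 93.4 and 87.9 CPM to 51.6, 50.2 and 48.7 CPM (-0.85 ± 0.097, adjusted p = 7.46e-08). No library of one group reached the range of the other in either gene, and the FEN1 libraries of each group were close together. Of the 7 polymerase and primase genes 5 fell, with a median of -0.66. POLD1, the catalytic subunit of polymerase delta, stood at 146, 151 and 139 CPM and then at 112, 89.3 and 105 CPM (-0.51, adjusted p = 0.00285).

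Nucleotide supply and the regulators fell as well. RRM2, the regulated subunit of ribonucleotide reductase (ENSG00000171848.15, chromosome 2, 10120698 to 10131419), went from 162, 179 and 159 CPM in DMSO day 3 to 81.2, 47.6 and 50.9 CPM with selumetinib. DUT, which removes dUTP from the nucleotide pool, went from 145, 152 and 152 CPM to 122, 98.0 and 94.9 CPM. E2F1, the transcription factor that many of the other genes are known to answer to (ENSG00000101412.13, chromosome 20, 33675683 to 33686404), went from 44.5, 41.3 and 46.1 CPM to 19.6, 13.9 and 13.7 CPM. In all 3 genes the groups were separate, and RRM2 and E2F1 were lowered far more than DUT. The log2 fold changes were -1.48 ± 0.164 for RRM2 (adjusted p = 2.15e-06), -0.51 for DUT (adjusted p = 1.39e-05) and -1.48 ± 0.144 for E2F1 (adjusted p = 4.76e-09). UHRF1, which links replicated DNA to maintenance methylation, fell from 153, 170 and 144 CPM to 104, 78.3 and 67.5 CPM (-0.90, adjusted p = 5.61e-07).

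**Figure D2:**
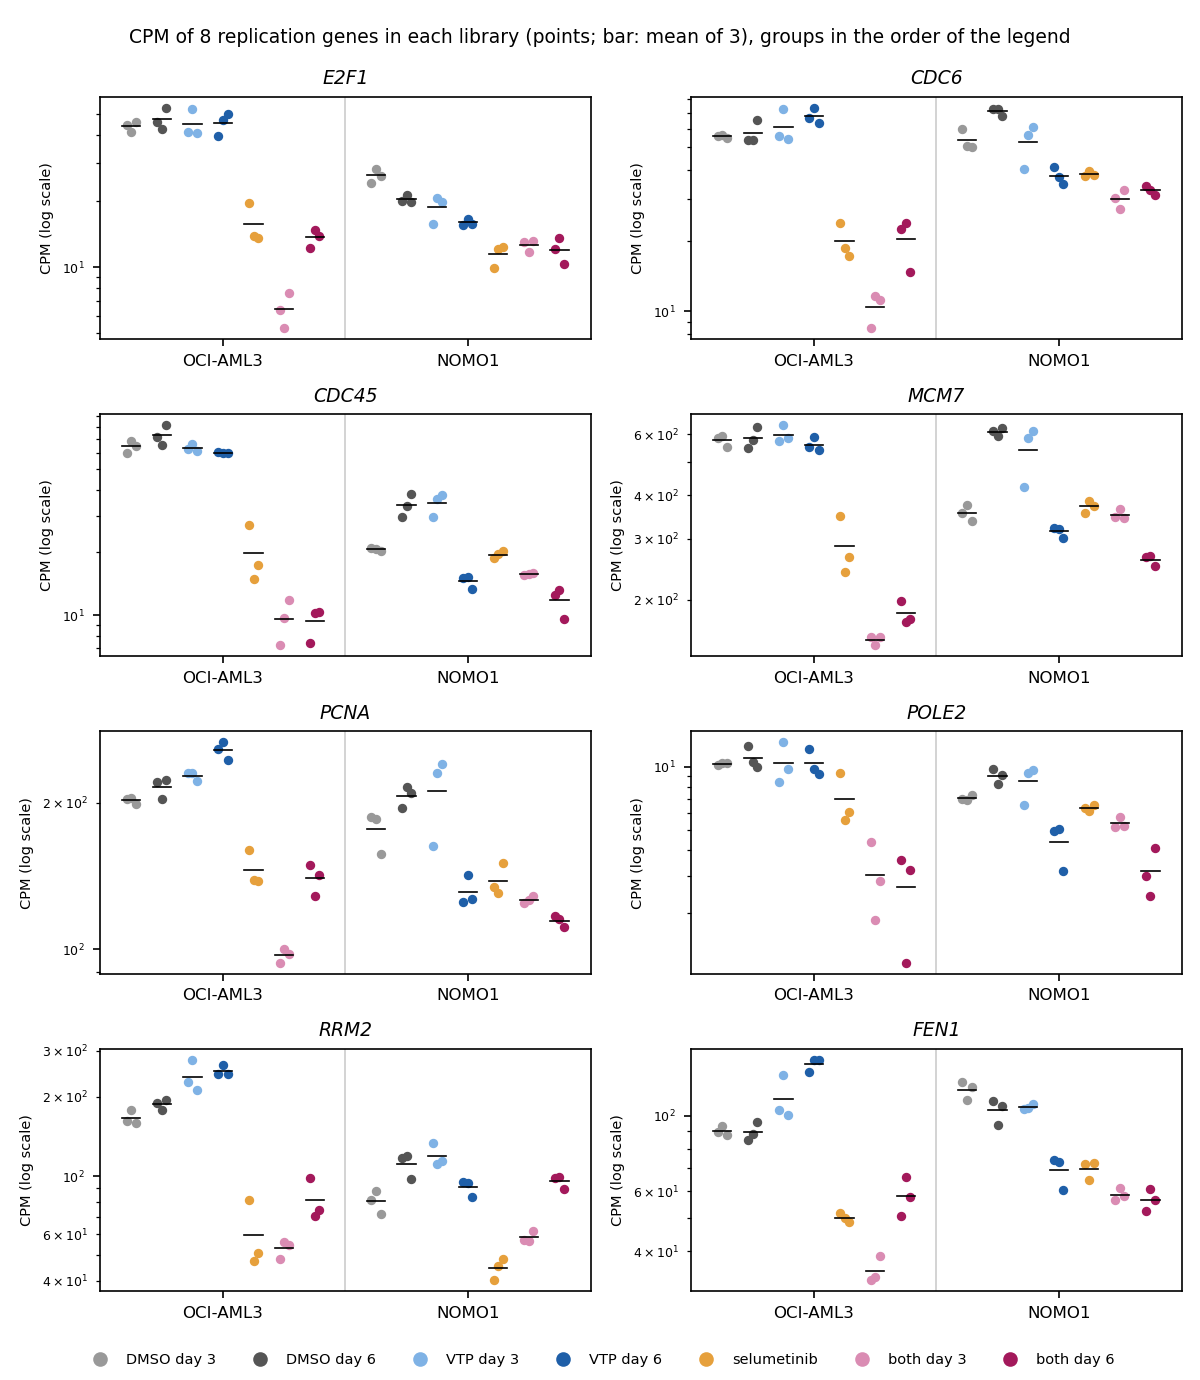
CPM (log axis) of E2F1, CDC6, CDC45, MCM7, PCNA, POLE2, RRM2 and FEN1 in every library of each group, with OCI-AML3 and NOMO1 libraries scaled within their own line. In OCI-AML3 the combination day 3 libraries lie below all DMSO, VTP-50469 and selumetinib libraries in each gene except RRM2, where they overlap the selumetinib group, and in NOMO1 the groups lie closer together.

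With both drugs in OCI-AML3 all 38 genes fell, at day 3 and at day 6. At day 3 25.8% of all genes tested fell and at day 6 26.5%, and the median of the 38 genes was -1.45 and -1.20 on the log2 scale. Their summed level was 1542 ± 46 CPM (SD, n = 3) at day 3, 67.0% below DMSO, and 1958 ± 106 CPM (SD, n = 3) at day 6, 60.0% below. In each of the 38 genes every combination library was below every DMSO library of the same day. How many of all genes tested separated in this way was not counted. The mitochondrial share of counts was 6.16 ± 0.17% (SD, n = 3) in the combination at day 3 and 12.26 ± 2.27% at day 6, against 2.53 ± 0.13% and 3.24 ± 0.67% in DMSO. With the mitochondrial genes removed before scaling, all 38 genes again fell at both days, with medians of -1.45 and -1.21.

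Roles differed in the size of their fall with both drugs. At day 3 the regulators had a median of -1.85, the licensing genes -1.80 and the helicase activation genes -1.79, and the lagging strand genes, LIG1 and FEN1, -1.09. E2F1 went from 44.5, 41.3 and 46.1 CPM in DMSO day 3 to 6.41, 5.28 and 7.60 CPM, a log2 fold change of -2.77 ± 0.156 (adjusted p = 1.21e-14). CDC45 stood at 7.19, 9.77 and 11.8 CPM (-2.74 ± 0.176, adjusted p = 3.31e-12), and MCM10 at 13.3, 12.9 and 11.5 CPM (-2.66 ± 0.133, adjusted p = 1.48e-15). All day 3 combination libraries of these 3 genes were also below all selumetinib libraries. CDC6 stood at 8.48, 11.6 and 11.2 CPM (-2.42 ± 0.161, adjusted p = 1.98e-12) and MCM7 at 157, 148 and 156 CPM (-1.91 ± 0.094, adjusted p = 1.62e-15).

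Smaller falls with both drugs at day 3 were those of PCNA, at 93.9, 100 and 98.0 CPM (-1.05 ± 0.070, adjusted p = 2.98e-13), and of DUT, at 77.9, 73.5 and 80.4 CPM (-0.96, adjusted p = 6.56e-11). The smallest was that of PRIM2, from 23.1, 22.7 and 21.6 CPM to 15.5, 14.9 and 19.2 CPM (-0.44 ± 0.127, adjusted p = 0.00462). These 3 genes were lower in every combination library than in every DMSO library, as the rest were. RFC3, a subunit of the clamp loader, went from 64.6, 64.5 and 68.2 CPM to 19.3, 19.4 and 20.7 CPM, with a log2 fold change of -1.73 ± 0.111 (adjusted p = 1.61e-13). POLE2 went from 10.2, 10.4 and 10.5 CPM to 4.40, 1.85 and 2.83 CPM, too few counts for a precise fold (-1.78 ± 0.297, adjusted p = 1.03e-05). Of the genes with no library values given, GINS2, a subunit of the GINS complex, fell by 2.26 on the log2 scale, MCM4, of the helicase ring, by 1.69, CLSPN by 1.78, RRM1, the large subunit of ribonucleotide reductase, by 1.18 and RFC5, of the clamp loader, by 0.75. RRM2, at 48.6, 55.9 and 54.8 CPM, lay within the range of its selumetinib libraries, which ran from 47.6 to 81.2 CPM.

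Between day 3 and day 6 of the combination, 17 of the 38 genes rose and none fell, while 8.44% of all genes tested rose and 6.59% fell. E2F1 reached 12.3, 14.8 and 13.9 CPM at day 6, above all 3 day 3 libraries (log2 difference 1.09 ± 0.161, adjusted p = 3.8e-05). PCNA reached 149, 129 and 142 CPM (0.52, adjusted p = 9.62e-06). Both remained below every DMSO day 6 library, the PCNA libraries of which stood at 221, 204 and 222 CPM. CDC45 did not pass the test between the days and was at 7.39, 10.3 and 10.4 CPM at day 6, the largest fall relative to DMSO at that day (-2.95 ± 0.180, adjusted p = 1.66e-12). None of the 7 polymerase and primase genes rose. By the fit of only the compared groups 10 genes rose and with unscaled library totals 11, where the median of all genes moved by -0.12.

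**Figure D3:**
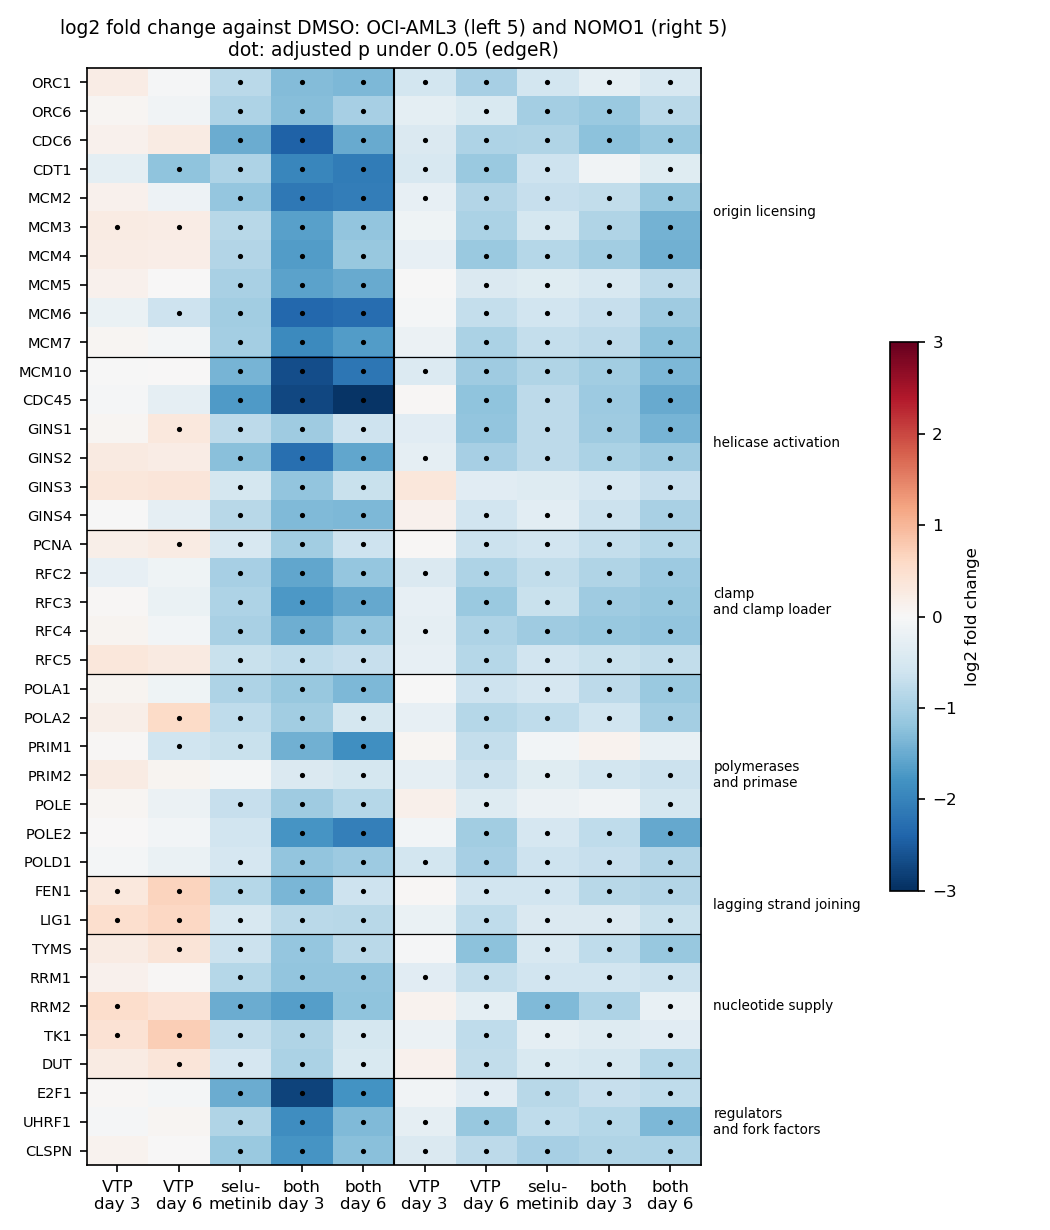
Log2 fold changes of the 38 genes, ordered by role, in each comparison with DMSO in OCI-AML3 and NOMO1, shown as a colour grid in which marked cells passed the edgeR test. The OCI-AML3 combination columns are lower in every gene, and the OCI-AML3 VTP-50469 columns hold both directions.

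VTP-50469 alone did not lower the set in OCI-AML3. At day 3, 5 genes rose and none fell, with 6.49% of all genes tested rising and 4.42% falling. At day 6, 9 genes rose and 3 fell, while 18.8% of all genes tested rose and 16% fell, so the share of the 38 genes that rose was not far above the background. The medians were 0.11 and 0.02. The count at day 3 rests on single libraries: no gene passed without DMSO day 3 replicate 3 or without VTP-50469 day 3 replicate 2, and 1 passed without DMSO day 3 replicate 1 or 2. That VTP-50469 library had the highest summed level of its group (5449 CPM against 4797 and 4753 CPM). At day 6, 5 genes rose without DMSO day 6 replicate 1, and the fit of only the compared groups gave 14 that rose and 9 that fell.

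Of the 9 genes that rose at day 6, 3 belong to nucleotide supply and 2 to the lagging strand. TK1, the thymidine kinase of the salvage route (ENSG00000167900.12, chromosome 17, 78174075 to 78187233), went from 132, 135 and 170 CPM in DMSO day 6 to 241, 247 and 238 CPM (0.73 ± 0.120, adjusted p = 3.52e-05). FEN1 went from 85.0, 88.3 and 96.0 CPM to 135, 146 and 145 CPM (0.66 ± 0.095, adjusted p = 1.84e-06). LIG1, the ligase that seals the lagging strand, went from 47.8, 46.9 and 49.5 CPM to 73.5, 75.3 and 73.3 CPM (0.62 ± 0.147, adjusted p = 0.00148). In each of the 3 genes all VTP-50469 libraries were above all DMSO libraries and close to each other.

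DUT went from 141, 143 and 159 CPM to 184, 197 and 191 CPM (0.37 ± 0.081, adjusted p = 0.000596). TYMS, thymidylate synthase, went from 69.7, 70.1 and 65.7 CPM to 86.6, 93.8 and 87.9 CPM (0.38, adjusted p = 0.0329). These groups did not overlap either, and RRM2, a further gene of this role, had values of 190, 179 and 195 CPM in DMSO and 245, 264 and 244 CPM with VTP-50469 but narrowly missed the threshold (0.41, adjusted p = 0.051). At day 3 RRM2 did rise, from 162, 179 and 159 CPM to 227, 277 and 212 CPM (0.52 ± 0.158, adjusted p = 0.0439). The other 4 genes that rose at day 3 were LIG1 (0.51), TK1 (0.43), FEN1 (0.31) and MCM3 (0.26).

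PCNA rose at day 6 from 221, 204 and 222 CPM to 257, 266 and 245 CPM (0.25 ± 0.068, adjusted p = 0.00507), and MCM3, a subunit of the helicase ring, from 236, 232 and 247 CPM to 276, 283 and 279 CPM (0.23, adjusted p = 0.0304). GINS1, a subunit of the GINS complex, went from 46.9, 47.5 and 46.2 CPM to 58.6, 62.7 and 53.9 CPM (0.32, adjusted p = 0.0148), and POLA2 from 10.9, 12.3 and 11.8 CPM to 18.6, 15.8 and 17.6 CPM (0.57 ± 0.182, adjusted p = 0.0147). The groups were separate in all 4 genes, with the rises of PCNA and MCM3 small next to their levels.

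The 3 genes that fell with VTP-50469 at day 6 in OCI-AML3 were CDT1, MCM6 and PRIM1. CDT1 (ENSG00000167513.9, chromosome 16, 88803213 to 88809258) went from 406, 386 and 431 CPM in DMSO day 6 to 158, 205 and 168 CPM, a log2 fold change of -1.20 ± 0.120 (adjusted p = 5.99e-08). MCM6, a subunit of the helicase ring (ENSG00000076003.5, chromosome 2, 135839626 to 135876426), went from 391, 405 and 405 CPM to 265, 265 and 249 CPM (-0.63 ± 0.096, adjusted p = 8.18e-06). PRIM1, the catalytic subunit of primase (ENSG00000198056.14, chromosome 12, 56731596 to 56752373), went from 48.1, 45.8 and 47.0 CPM to 31.2, 31.1 and 30.9 CPM (-0.60 ± 0.129, adjusted p = 0.000468). No library of one group reached the other, and the MCM6 and PRIM1 libraries of each group were nearly equal. All 3 genes were also lower at day 6 than at day 3 of VTP-50469, by -0.86 for CDT1, -0.48 for PRIM1 and -0.36 for MCM6, in a comparison where 3 genes rose, 3 fell, and 9.8% and 8.65% of all genes tested rose and fell.

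Adding selumetinib to VTP-50469 lowered all 38 genes in OCI-AML3 at both days. Relative to VTP-50469 alone the median was -1.54 at day 3, where 24% of all genes tested fell, and -1.26 at day 6, where 24.6% fell. Every combination library was below every VTP-50469 library of the same day in each gene, and the share of all genes that did so was not counted. RRM2 fell by 2.17 on the log2 scale at day 3, from 227, 277 and 212 CPM to 48.6, 55.9 and 54.8 CPM. TK1, which rose with VTP-50469 alone, stood at 71.6, 71.0 and 73.5 CPM with both drugs at day 3 and was lower than with VTP-50469 alone by -1.32 ± 0.122.

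The interaction is the log2 effect of both drugs minus the sum of the effects of each drug alone. At day 3 in OCI-AML3 it was below 0 for 27 of the 38 genes and above 0 for none, with a median of -0.76, while 6.27% of all genes tested were below 0 and 2.67% above. It was below 0 for 9 of the 10 licensing genes, 4 of 6 helicase activation genes, 3 of 5 clamp and clamp loader genes, 3 of 7 polymerase and primase genes, 2 of 2 lagging strand genes, 4 of 5 nucleotide supply genes and 2 of the 3 regulators. The smallest p were those of MCM3 (-1.06 ± 0.117, adjusted p = 8.14e-07), MCM6 (-1.13 ± 0.138, adjusted p = 5.29e-06) and PCNA (-0.75 ± 0.097, adjusted p = 7.96e-06). MCM3 (ENSG00000112118.19, chromosome 6, 52264009 to 52284881) stood at 236, 227 and 226 CPM in DMSO day 3, 255, 307 and 262 CPM with VTP-50469, 148, 122 and 116 CPM with selumetinib, and 69.2, 77.5 and 74.4 CPM with both. MCM6 stood at 386, 380 and 381 CPM, 336, 337 and 328 CPM, 224, 161 and 171 CPM, and 65.5, 76.8 and 79.9 CPM in the same order. In both genes the libraries with both drugs were below all others of day 3, and the other 3 groups kept the order DMSO or VTP-50469 above selumetinib.

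The interaction in OCI-AML3 sets selumetinib libraries labelled 1 day beside combination libraries of day 3, so the time of treatment and the joint effect cannot be told apart. Without selumetinib replicate 1 it was below 0 for 19 genes and without replicate 2 for 30. With selumetinib replicate 1 and VTP-50469 day 3 replicate 2 both left out, a setting chosen after the data were seen, it was below 0 for 16 genes.

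The DMSO libraries of NOMO1 differed by day, which is why they are set out before the treatments. At day 6, 24 of the 38 genes were higher than at day 3 and 5 were lower, while 28.8% of all genes tested were higher and 22.3% lower, and in OCI-AML3 the same comparison called 0 genes of the 38 and 0 of all tested in edgeR. At an unadjusted p under 0.05 174 genes passed in OCI-AML3, with 0 of the 38 among them, and DESeq2 called 0 of the 38. The mitochondrial share of counts was 17.8 ± 0.20% (SD, n = 3) in NOMO1 DMSO day 3 and 3.17 ± 0.48% in DMSO day 6, and its part in the result was not tested beyond 1 setting, in which removing the mitochondrial genes left 24 genes higher and 5 lower. With unscaled library totals 30 genes were higher and 1 was lower, and there the median of all genes moved by 0.37.

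MCM2, a subunit of the helicase ring, differed most between the DMSO days of NOMO1, at 75.4, 83.4 and 81.2 CPM at day 3 and 425, 403 and 444 CPM at day 6 (log2 difference 2.41 ± 0.080, adjusted p = 2.36e-18). PRIM1 was at 10.2, 8.87 and 13.3 CPM at day 3 and at 30.9, 36.7 and 34.2 CPM at day 6 (1.66 ± 0.134, adjusted p = 5.09e-11). In both genes the day 3 DMSO libraries were below all other NOMO1 libraries. The 5 genes that were lower at day 6 were POLA2 (-0.96), ORC6 (-0.43), DUT (-0.41), E2F1 (-0.36) and FEN1 (-0.20), and for FEN1 the sign turned with unscaled library totals (0.14).

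Counts of calls in NOMO1 differed with the DMSO day used as control. Against DMSO day 3, 20 genes rose and 8 fell with VTP-50469 at day 3, 5 rose and 21 fell at day 6, 10 rose and 16 fell with selumetinib, and with both drugs 6 rose and 16 fell at day 3 and 4 rose and 24 fell at day 6. In the same order 29.7%, 33.4%, 28.9%, 31.1% and 33.8% of all genes tested rose and 22.7%, 29.8%, 25.2%, 27.5% and 32.4% fell. Medians against DMSO day 3 were 0.32, -0.41, -0.05, -0.13 and -0.42, again in that order. Genes that fell against both DMSO days with selumetinib included E2F1 (-0.83 against day 6 and -1.20 against day 3), RRM2 (-1.32 and -0.84), FEN1 (-0.57 and -0.77) and PCNA (-0.58 and -0.35). With selumetinib 18 of the 38 genes had opposite signs against the 2 DMSO days, and 9 of them rose against day 3 and fell against day 6. These were MCM2 (1.71 against day 3), RFC3 (0.42), POLA1 (0.40), ORC1 (0.38), MCM5 (0.37), POLD1 (0.35), MCM6 (0.30), GINS4 (0.27) and MCM3 (0.23).

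VTP-50469 lowered the set in NOMO1 at day 6. Against DMSO day 6, 37 of the 38 genes fell and none rose, while 25.1% of the 16561 genes tested fell, and the median was -0.85. The gene that did not pass was GINS3, a subunit of the GINS complex (-0.35, adjusted p = 0.0793). Their summed level was 5112 ± 47 CPM (SD, n = 3) in DMSO and 2828 ± 110 CPM with VTP-50469, 44.7% lower. In all 38 genes every VTP-50469 library was below every DMSO day 6 library, but the share of all genes doing so was not counted. At day 3, 12 genes fell and none rose, with 14.4% of all genes tested falling, and the median was -0.21. That group was uneven, with summed levels of 3864, 4737 and 4842 CPM, and 19 genes fell without its replicate 3.

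CDC45 went from 29.6, 33.4 and 38.3 CPM in NOMO1 DMSO day 6 to 15.1, 15.3 and 13.4 CPM with VTP-50469 at day 6 (-1.21 ± 0.119, adjusted p = 2.64e-09). TYMS went from 61.5, 57.0 and 51.6 CPM to 21.8, 29.3 and 21.2 CPM (-1.23 ± 0.161, adjusted p = 1.4e-06). MCM7 went from 612, 594 and 624 CPM to 322, 320 and 302 CPM (-0.96, adjusted p = 7.12e-10). The groups were far apart in these 3 genes, which belong to helicase activation, nucleotide supply and licensing. UHRF1 went from 148, 135 and 145 CPM to 72.3, 62.5 and 60.0 CPM (-1.14, adjusted p = 7.78e-11), and MCM3 from 420, 410 and 441 CPM to 224, 222 and 209 CPM (-0.96, adjusted p = 4.66e-11).

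E2F1 and RRM2, which were among the most lowered genes in OCI-AML3 with selumetinib, were among the least lowered with VTP-50469 in NOMO1. E2F1 went from 20.1, 21.3 and 19.7 CPM in DMSO day 6 to 15.5, 16.7 and 15.8 CPM (-0.35, adjusted p = 0.0219). RRM2 went from 117, 119 and 97.8 CPM to 94.7, 93.9 and 83.5 CPM (-0.29, adjusted p = 0.00917). Both groups were separate but close. Role medians ran from -0.67 for the lagging strand genes to -1.03 for the helicase activation genes. Between day 3 and day 6 of VTP-50469 36 of the 38 genes fell, against 21.3% of all genes tested, with E2F1 and ORC6, a subunit of ORC, as the exceptions.

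With selumetinib 35 of the 38 genes fell in NOMO1 against DMSO day 6 and none rose, with 19% of all genes tested falling and a median of -0.61. The summed level was 3293 ± 121 CPM (SD, n = 3), 35.6% below DMSO day 6. RRM2 went from 117, 119 and 97.8 CPM to 40.3, 45.5 and 48.4 CPM (-1.32 ± 0.095, adjusted p = 4.44e-11), the largest fall. RFC4, a subunit of the clamp loader, went from 68.5, 74.3 and 70.4 CPM to 32.5, 29.6 and 39.0 CPM (-1.07), and DUT from 185, 181 and 194 CPM to 135, 134 and 138 CPM. In each of the 3 genes selumetinib libraries were all below the DMSO libraries. GINS3, POLE, the catalytic subunit of polymerase epsilon, and PRIM1 did not pass, and PRIM1 had 31.1, 30.1 and 35.5 CPM with selumetinib, 2 of the 3 within its DMSO range and the other just below it.

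With both drugs in NOMO1, 35 genes fell at day 3 and 37 at day 6 and none rose, against 24.4% and 28.2% of all genes tested. The medians were -0.75 and -0.94. Summed levels were 3134 ± 28 CPM (SD, n = 3) at day 3 and 2633 ± 105 CPM at day 6, 38.7% and 48.5% below DMSO day 6. POLE2 (ENSG00000100479.13, chromosome 14, 49643555 to 49688422) had the largest fall at day 6, from 9.79, 8.28 and 9.18 CPM to 3.00, 2.41 and 4.10 CPM (-1.53 ± 0.206, adjusted p = 3.63e-07). CDC45 reached 12.5, 13.3 and 9.65 CPM (-1.51 ± 0.122, adjusted p = 2.53e-11) and MCM3 162, 166 and 150 CPM (-1.41, adjusted p = 1.04e-14). These libraries were all below those of DMSO day 6. MCM4 fell by 1.45 on the log2 scale, GINS2 by 1.06, RFC5 by 0.74 and RRM1 by 0.63. PRIM1 did not pass at either day, with 33.7, 28.9 and 25.4 CPM at day 6, and CDT1 and POLE did not pass at day 3. From day 3 to day 6 of the combination RRM2 rose (0.71, adjusted p = 7.47e-07) and 15 genes fell, while 20.6% of all genes tested rose and 19.7% fell, and the fit of only the compared groups gave 2 that rose and 23 that fell.

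Adding selumetinib to VTP-50469 in NOMO1 lowered 32 genes at day 3 and raised CDT1 (0.37) and ORC1 (0.25), with 19.2% of all genes tested falling and 15.9% rising, and the median was -0.63. At day 6 it lowered 12 of the 38 genes and raised 4, and the median was -0.20. Of all genes tested 15.2% fell and 12.4% rose, so the share of the 38 genes that rose was not above the background. Without VTP-50469 day 6 replicate 2 7 genes were lower. The 4 genes that rose were CDT1, ORC1, PRIM1 and TK1. CDT1 stood at 145, 134 and 131 CPM with VTP-50469 and at 239, 228 and 220 CPM with both drugs (0.74 ± 0.121, adjusted p = 8.18e-05). ORC1, the largest subunit of ORC, went from 35.0, 33.1 and 35.4 CPM to 52.1, 53.0 and 43.6 CPM (0.52 ± 0.083, adjusted p = 2.19e-05). For both genes all libraries with both drugs were above those with VTP-50469 and below those of DMSO day 6, in which ORC1 had 70.1, 74.1 and 62.4 CPM.

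TK1 in NOMO1 went from 92.0, 98.4 and 94.3 CPM with VTP-50469 at day 6 to 130, 130 and 124 CPM with both drugs (0.43 ± 0.071, adjusted p = 3.54e-05), and PRIM1 from 21.1, 21.6 and 19.6 CPM to 33.7, 28.9 and 25.4 CPM (0.50, adjusted p = 0.00396). Of the 12 genes that fell 7 were licensing genes, among them MCM3, from 224, 222 and 209 CPM to 162, 166 and 150 CPM (-0.46, adjusted p = 4.71e-05), MCM6 (-0.36) and MCM7 (-0.27). POLA1, the catalytic subunit of polymerase alpha, fell by 0.49 on the log2 scale and E2F1 by 0.41. Both directions thus occurred within the licensing genes, with 7 lower and 2 higher. Rises over the whole set of replication genes were no more frequent than among all genes tested.

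The interaction in NOMO1 at day 3 was above 0 for 4 of the 38 genes and below 0 for 1, with a median of 0.09. Of all genes tested 7.91% were above 0 and 5.97% below, so neither share of the 38 genes was far from the background. The 4 genes were CDT1 (1.00 ± 0.170, adjusted p = 0.000431), ORC1 (0.81 ± 0.116, adjusted p = 2.69e-05), CLSPN, a checkpoint factor at forks (0.52), and POLD1 (0.51, adjusted p = 0.015), and the 1 below 0 was GINS4, a subunit of the GINS complex (-0.45, adjusted p = 0.0387). CDT1 stood at 329, 283 and 275 CPM in DMSO day 6, 284, 177 and 177 CPM with VTP-50469 at day 3, 195, 187 and 191 CPM with selumetinib, and 278, 270 and 275 CPM with both drugs at day 3. Libraries with both drugs were thus above those with selumetinib, and VTP-50469 replicate 1 stood apart from the other libraries of its group. This interaction sets selumetinib libraries labelled 1 day and DMSO libraries of day 6 beside libraries of day 3. Time of treatment and joint effect therefore cannot be told apart. Against DMSO day 3 the interaction was above 0 for 5 genes and below 0 for 18 (median -0.40), with 15.3% and 21.7% of all genes tested. Of the 4 genes above 0 only CDT1 kept its sign there, and ORC1 (-0.12), CLSPN (-0.13) and POLD1 (-0.47) turned.

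**Figure D4:**
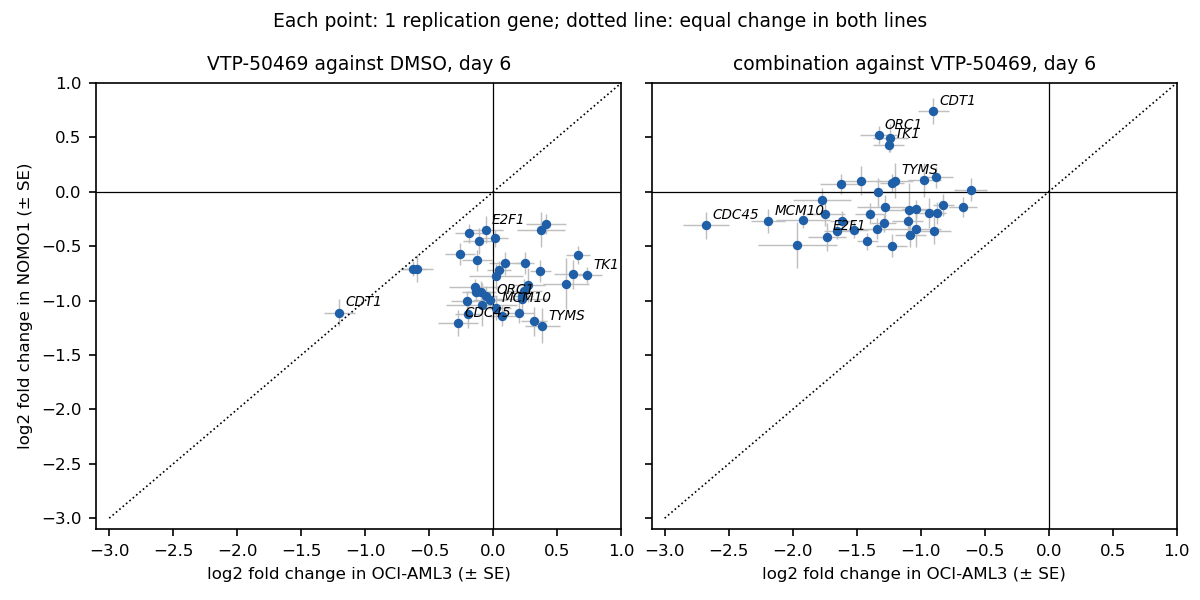
Log2 fold changes (with SE) of the 38 genes in OCI-AML3 (x axis) and NOMO1 (y axis) at day 6, for VTP-50469 against DMSO on the left and for both drugs against VTP-50469 on the right, with a dotted line at equal change. On the left most genes lie near 0 in OCI-AML3 and below 0 in NOMO1, and on the right all lie below 0 in OCI-AML3 and nearer 0 in NOMO1.

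The difference between the lines was tested in 1 fit of all 42 libraries, as the NOMO1 effect minus the OCI-AML3 effect. For effects against DMSO, DMSO day 6 was the control in both lines, also for selumetinib. For VTP-50469 at day 6 it was below 0 for 30 of the 38 genes and above 0 for none, with 16.8% of all genes tested below 0, and the median was -0.83. The smallest p were those of TK1 (-1.43 ± 0.138, adjusted p = 2.23e-11), MCM3 (-1.12, adjusted p = 4.99e-11) and FEN1 (-1.18, adjusted p = 3.61e-10). Each of the 3 rose in OCI-AML3 and fell in NOMO1. The 8 genes that did not differ by the test were POLE2, ORC6, GINS4, E2F1, POLE, PRIM1, MCM6 and CDT1. Of these, CDT1, MCM6 and PRIM1 fell in both lines, by 1.20 and 1.11, 0.63 and 0.71, and 0.60 and 0.71 on the log2 scale in OCI-AML3 and NOMO1.

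For selumetinib added to VTP-50469 at day 6, the difference between the lines was above 0 for 37 of the 38 genes, with 11.4% of all genes tested above 0 and a median of 1.17. The exception was GINS3 (0.69, adjusted p = 0.0634). In OCI-AML3 TK1 changed by -1.25 ± 0.122, ORC1 by -1.33 ± 0.142 and MCM10 by -2.19 ± 0.131, and in NOMO1 by 0.43 ± 0.071, 0.52 ± 0.083 and -0.27 ± 0.109. The differences were 1.67 ± 0.139 for TK1 (adjusted p = 3.51e-12), 1.84 for ORC1 (adjusted p = 2.01e-11) and 1.91 for MCM10 (adjusted p = 5.6e-11). ORC1 in OCI-AML3 stood at 39.8, 38.2 and 38.6 CPM with VTP-50469 at day 6 and at 12.6, 14.5 and 19.3 CPM with both drugs, the opposite direction to NOMO1.

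Selumetinib alone and the combination against DMSO differed less between the lines. For selumetinib the difference was above 0 for 11 genes, with 4.65% of all genes tested above 0 and 4.96% below, and the median was 0.35. It was led by MCM5, a subunit of the helicase ring (0.76, adjusted p = 8.46e-05), CDC45 (1.12, adjusted p = 0.000131) and MCM6 (0.56, adjusted p = 0.00117). The count was 7 without OCI-AML3 selumetinib replicate 2 or replicate 3 and 22 without replicate 1. With DMSO day 3 as the control in both lines it was 25 above 0 and 2 below, beside 20.1% and 13.6% of all genes tested. For the combination at day 6 it was above 0 for 15 genes and below 0 for 2, GINS1 (-0.71) and DUT (-0.34), with 18.6% and 16.3% of all genes tested, and 11 and 5 with unscaled library totals. MCM6 (1.27, adjusted p = 2.59e-11), CDT1 (1.79, adjusted p = 8.69e-10) and PRIM1 (1.68, adjusted p = 1.5e-09) had the smallest p, each lower in OCI-AML3 (-2.28, -2.10 and -1.83 against DMSO) than in NOMO1 (-1.07, -0.37 and -0.21).

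Without drug, at DMSO day 6, 19 of the 38 genes were higher in NOMO1 and 5 lower, beside 32.7% and 28.6% of all genes tested, and with unscaled library totals 14 were higher and 12 lower. RFC2 (2.24, adjusted p = 1.17e-23), MCM3 (1.21, adjusted p = 1.71e-17) and RFC4 (1.42, adjusted p = 4.88e-16) were higher in NOMO1 under both scalings, at 1.97, 0.94 and 1.15 with unscaled totals. E2F1 (-0.84), CDC45 (-0.72), POLE (-0.69), MCM6 (-0.45) and RRM2 (-0.38) were lower. The lines share no libraries, and the genes that fell in both were 33 of 38 with selumetinib, 35 with both drugs at day 3, 37 with both drugs at day 6 and 3 with VTP-50469 at day 6. Of the 14567 genes tested in both lines, 9.95%, 16.2%, 16.1% and 6.62% fell in both, in that order. These counts rest on DMSO day 6 as the NOMO1 control. Against DMSO day 3, NOMO1 had 16, 16, 24 and 21 of the 38 lower and 10, 6, 4 and 5 higher, in that order. Of all genes tested there, 25.2%, 27.5%, 32.4% and 29.8% fell and 28.9%, 31.1%, 33.8% and 33.4% rose.

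Other genes of the cell cycle moved less uniformly. Of 41 further replication factors, 29 fell and 2 rose with selumetinib in OCI-AML3 (median -0.45) and 30 fell and 2 rose with both drugs at day 3 (median -0.70). Among these were CHAF1A, a histone chaperone at forks (-0.92 ± 0.093, adjusted p = 1.10e-08, with selumetinib, and -1.56 with both drugs), and DNMT1, the maintenance methyltransferase (-0.73 and -1.13). In NOMO1 34 of the 41 fell and 1 rose with VTP-50469 at day 6, among them POLD2, a subunit of polymerase delta (-1.19), and GMNN, the inhibitor of CDT1 (-1.03).

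Of 32 genes of mitosis, 26 fell with selumetinib in OCI-AML3 (median -0.39), but with both drugs at day 3 13 fell and 6 rose (median -0.09), where all 38 replication genes fell (median -1.45). MYBL2, a transcription factor of the cell cycle (-1.29), and MAD2L1, of the spindle checkpoint (-1.06), fell there, and KIF20A, a kinesin of cell division (0.91), rose. With VTP-50469 at day 6 in OCI-AML3 16 of the 32 mitosis genes rose and none fell, with KIF20A at 0.87. In NOMO1 22 fell and 1 rose with VTP-50469 at day 6 and 24 fell and 2 rose with both drugs, with medians of -0.58 and -0.56.

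**Figure D5:**
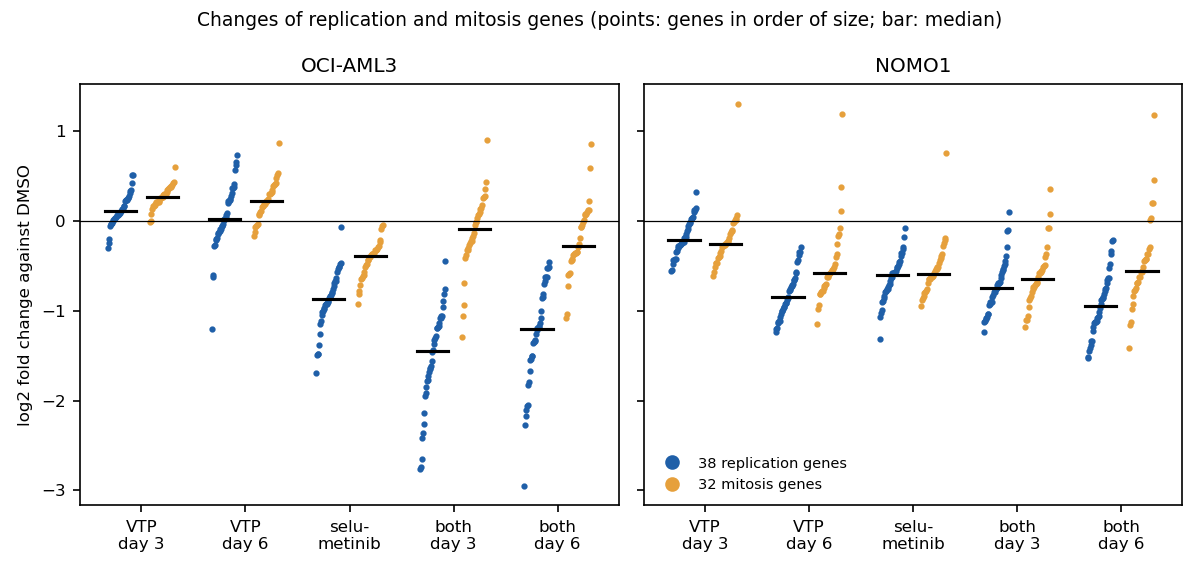
Log2 fold changes against DMSO of the 38 replication genes and of 32 genes of mitosis in both lines, 1 point per gene with a bar at the median. With both drugs at day 3 in OCI-AML3 the medians are -1.45 and -0.09, and with VTP-50469 at day 6 in NOMO1 they are -0.85 and -0.58.

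Of the genes of G1 to S control, 14 fell and 2 rose with selumetinib in OCI-AML3. CDC25A, a phosphatase that activates cyclin-dependent kinases, fell by 1.20 on the log2 scale with selumetinib and by 2.43 ± 0.136 with both drugs at day 3 (adjusted p = 1.15e-14). CDKN1A, an inhibitor of these kinases, rose with VTP-50469 at day 6 in both lines, by 1.13 in OCI-AML3 and 2.35 in NOMO1. CCND1, a D-type cyclin, fell by 4.11 ± 0.124 with selumetinib in NOMO1 (adjusted p = 6.44e-19).

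Marker genes of each drug's action moved with treatment. DUSP6, a phosphatase induced by ERK, fell with selumetinib by 1.07 ± 0.327 on the log2 scale in OCI-AML3 (adjusted p = 0.0155) and by 3.23 in NOMO1. In NOMO1 with both drugs at day 6 DUSP6 did not pass (-0.30). MEIS1, a known target of menin and KMT2A, fell by 6.76 with VTP-50469 at day 6 in NOMO1 and by 0.37 in OCI-AML3. MYC fell by 2.10 with both drugs at day 3 in OCI-AML3 and by 2.67 at day 6 in NOMO1. MKI67, a marker of cycling cells, rose by 0.29 and 0.46 in these comparisons, against most called genes of its list. Of the 32 mitosis genes, which include MKI67, 13 fell and 6 rose in the first comparison, and 24 fell and 2 rose in the second.

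Genes with an E2F word had the lower median in every comparison examined, by small to moderate amounts that were not tested. In OCI-AML3 with both drugs at day 3 the median was -1.73 for the 21 genes with a word in a window and -1.33 for the 14 without, and with selumetinib it was -0.90 and -0.85. In NOMO1 with VTP-50469 at day 6 the medians were -0.88 and -0.81. They were -1.33 and -1.18 with both drugs at day 6 in OCI-AML3. In NOMO1 they were -0.63 and -0.605 with selumetinib and -1.065 and -0.778 with both drugs at day 6. With both drugs at day 3 in OCI-AML3 genes with a word ran from -2.77 to -0.81 and those without from -2.74 to -0.44. E2F1, with 2 words, stood at -2.77, MCM6, with 4, at -2.37 and PCNA, with 1, at -1.05. CDC45 and MCM10, with none, stood at -2.74 and -2.66, and PRIM2, with none, at -0.44. These are descriptions of the 35 matched genes, which are not independent of each other.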

How the data were processed

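Polyadenylated RNA was sequenced as unstranded paired-end libraries. The authors deposited 1 table of raw counts per gene, whole numbers with no scaling. The submitters' processing notes name FastQC 0.11.9, MultiQC 1.14, STAR 2.11a, featureCounts of Subread 2.0.6, DESeq2 1.44.0 and build hg38, with no roles given. Left out were 1 row with an empty cell and 3 columns that match no labelled library and equal the OCI-AML3 selumetinib columns in every row. Positions are those of GENCODE 29 on GRCh38, while the table's header names GENCODE 30.

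Groups came from the labels. Each line was fitted alone over its 21 libraries with 7 group means in edgeR 4.0.16 (R 4.3.3), by the quasi-likelihood test with robust dispersions, after filterByExpr and TMM. P-values were adjusted by Benjamini-Hochberg over the 16384 or 16561 genes tested, with a threshold of 0.05. A joint fit of both lines (18707 genes) gave the line differences. DESeq2 1.42.0 was an alternative. The scripts were tested on simulated data. Totals of 15264862 to 29168628 counts leave the rarest of the 38 genes with wide errors.

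Every one of the 38 genes was to be named, with library values for the gene of highest CPM and of largest called change per role, for genes called against the main direction, and for the 3 smallest adjusted p of each interaction and line difference. From other lists up to 4 called genes were taken. Genes, lists and tests were chosen with earlier results of these data known. The alternatives were other scalings, filters, controls, fits of the compared groups only, DESeq2, a replicate block and leaving out each library.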

Additional observations from a re-analysis of the deposited data

Results flagged for a closer look

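Effects that differed between the 2 lines by the test of the difference itself, in 1 edgeR fit of all libraries, are collected here as NOMO1 minus OCI-AML3 on the log2 scale. For VTP-50469 at day 6, 30 of the 38 genes were below 0, beside 16.8% of all genes tested. They were led by TK1 (-1.43), MCM3 (-1.12) and FEN1 (-1.18). For selumetinib, 11 were above 0, beside 4.65% of all genes tested, led by MCM5 (0.76), CDC45 (1.12) and MCM6 (0.56). That count ran from 7 to 22 when 1 library was left out. With DMSO day 3 as the control in both lines, 25 were above 0 and 2 below, beside 20.1% and 13.6% of all genes tested. For both drugs at day 6, 15 were above 0, led by MCM6 (1.27), CDT1 (1.79) and PRIM1 (1.68). Below 0 were 2, GINS1 (-0.71) and DUT (-0.34). Of all genes tested, 18.6% were above 0 and 16.3% below. For selumetinib added to VTP-50469 at day 6, 37 were above 0, beside 11.4% of all genes tested. They were led by TK1 (1.67), ORC1 (1.84) and MCM10 (1.91). No gene was checked for a single outlying library, since groups of 3 are too small for that test.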

How the results depend on the processing

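Counts are of the 38 genes called in the stated direction. Over all alternatives 7281 of 7605 values of named genes kept direction and side of the threshold, 291 were weaker and 33 turned sign. Most of these values come from leaving out 1 library (3378). With DMSO day 3 as the control, only 66 of 119 values were the same, 21 were weaker and 32 turned sign. Of the counts of calls, 188 moved by less than 1.5 times and 10 by more when 1 library was left out, and 226 and 16 under the other settings. DESeq2 and removal of the mitochondrial genes moved none of these counts by over 1.5 times.

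With DMSO day 3 as the NOMO1 control 16 genes fell with selumetinib and 16 with both drugs at day 3. In settings chosen after the data were seen, this control gave 21 that fell with VTP-50469 and 24 with both drugs at day 6. The line difference with selumetinib was above 0 for 25 genes and below 0 for 2 with DMSO day 3 as control in both lines. Fits of only the compared groups gave 5 that fell with VTP-50469 at day 3 and 23 that fell between the combination days in NOMO1, and in OCI-AML3 10 that rose between the combination days, 3 with VTP-50469 at day 3 and 14 at day 6. With unscaled library totals 11 rose between the combination days and 8 with VTP-50469 at day 3 in OCI-AML3. With DMSO day 6 as the control 2 rose with VTP-50469 at day 3 in that line. With selumetinib replicate 1 and VTP-50469 day 3 replicate 2 left out, a setting chosen after the data were seen, 1 rose with VTP-50469 at day 3 and 16 interactions were below 0. Without a filter 5 fell between the VTP-50469 days in OCI-AML3. The cause of these moves was not tested.

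Leaving out 1 library gave, in OCI-AML3, 34 to 37 that fell with selumetinib, 0 to 5 that rose with VTP-50469 at day 3, 5 to 8 at day 6, 2 to 3 between its days, 12 to 15 between the combination days and 19 to 30 interactions. In NOMO1 it gave 10 to 19 that fell with VTP-50469 at day 3, 36 to 37 at day 6, 31 to 34 with selumetinib, 33 to 35 and 35 to 37 with both drugs, 7 to 12 for selumetinib added at day 6 and 11 to 13 between the combination days. For the line difference with selumetinib it gave 7 to 22.

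Against DMSO day 3 in NOMO1 18 of the 38 genes turned sign with selumetinib, namely MCM2 (1.71), PRIM1 (1.58), RFC3 (0.42), POLA1 (0.40), ORC1 (0.38), MCM5 (0.37), POLD1 (0.35), MCM6 (0.30), LIG1 (0.29), GINS4 (0.27), TYMS (0.27), MCM3 (0.23), PRIM2 (0.14), MCM10 (0.14), MCM7 (0.061), RRM1 (0.032), RFC5 (0.014) and TK1 (0.007). With both drugs 11 turned at day 3, namely MCM2 (1.66), ORC1 (0.65), POLD1 (0.29), LIG1 (0.29), MCM5 (0.26), MCM6 (0.20), POLA1 (0.11), CDT1 (0.075), RRM1 (0.044), MCM10 (0.008) and RFC3 (0.004), and 6 at day 6, namely PRIM1 (1.45), MCM2 (1.27), ORC1 (0.46), RRM2 (0.25), POLD1 (0.10) and LIG1 (0.079). With VTP-50469 at day 6 7 turned, namely MCM2 (1.53), PRIM1 (0.95), MCM5 (0.30), POLA1 (0.26), RRM2 (0.18), MCM6 (0.18) and GINS4 (0.015). At day 3 22 turned, and the 7 of them that had passed against DMSO day 6 were MCM2 (2.17), MCM10 (0.63), UHRF1 (0.47), POLD1 (0.42), ORC1 (0.39), RRM1 (0.28) and CLSPN (0.21). Of the interactions 19 turned, and the 3 that had passed were ORC1 (-0.12), CLSPN (-0.13) and POLD1 (-0.47). Between the DMSO days FEN1 turned with library totals (0.14).

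Replicate numbers did not pair the libraries, since correlations of same-numbered libraries about their group means were -0.089 to 0.041 for OCI-AML3 and -0.076 to 0.049 for NOMO1, and 6 and 4 of 21 libraries correlated best with their own number. With the replicate block 36 genes fell with selumetinib in OCI-AML3, 38 with both drugs at both days and 28 interactions were below 0, and in NOMO1 34 fell with selumetinib and 37 with VTP-50469 at day 6. No count moved by over 1.5 times under the block. Depth limits POLE2, POLA2 and GINS3 most.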
